A study of Mus musculus with 17 samples.

Results

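The genes described here are 9 components of the tight junction, the seal between neighbouring endothelial cells of brain vessels: Cldn5, Ocln, Marveld2, F11r, Jam2, Jam3, Lsr, Tjp1 and Cgnl1. They were chosen by name, with earlier results of these data known, and are 9 of the 42687 genes in the count table. All 9 were found there and all 9 passed the filter on low counts, as did 18753 genes in all. RNA was sequenced from microvessels isolated from the cerebral cortex of mice 10 to 11 months old. The mice were wild type (WT) or APP/PS1, an amyloid model of Alzheimer's disease that carries transgenes of mutant APP and presenilin and that the sample labels call APP. Every mouse was injected intraperitoneally with a peptide at 10 mg/kg, with 2 days between doses, over 2 weeks. The peptide was either gp91-ds-tat, an inhibitor of the superoxide-producing oxidase NOX2 (NOX2 in the labels), or its control sgp91-ds-tat (taken to be SC in the labels). The design thus had 5 libraries of WT mice with control peptide, 5 of WT with inhibitor, 2 of APP/PS1 with control peptide and 5 of APP/PS1 with inhibitor. No group went without a peptide. The promoter behind the transgenes, the sex of the mice, and whether a library came from 1 mouse or from pooled mice are not given in the sources used here. The p-values therefore measure the spread between these libraries, which may be partly technical.

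A tight junction is built from transmembrane proteins that meet across the gap between cells and from cytoplasmic scaffolds that tie them to actin. Claudins form the strands and set which small molecules pass, with claudin-5 the principal claudin of brain endothelium. Occludin and tricellulin are MARVEL-domain proteins, the junctional adhesion molecules are immunoglobulin-like proteins that help to set up cell polarity, and angulins recruit tricellulin to the corners where cells meet. These proteins are a main reason why brain capillaries are so much less leaky than vessels elsewhere, and the series title links the vessels of this model to oxidative stress and neutrophil arrest. The comparisons ask whether genotype, inhibitor or both moved the transcripts of the junction.

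The count table holds no coordinates. In the GENCODE vM21 annotation of build GRCm38, the same assembly as the mm10 named in the submitters' processing notes, all 9 members are protein-coding genes. Cldn5 (ENSMUSG00000041378) lies at chr16:18776847-18778262 on the plus strand and has 1 annotated transcript with 1.416 kb of exon. Ocln (ENSMUSG00000021638, chr13:100496507-100552718) and Marveld2 (ENSMUSG00000021636, chr13:100595957-100616971) lie 43.2 kb apart on the minus strand, with 2 genes annotated between them, 0 of them protein-coding. F11r (ENSMUSG00000038235) lies at chr1:171437535-171464603 and Jam2 (ENSMUSG00000053062) at chr16:84774123-84825928, both on the plus strand. Jam3 (ENSMUSG00000031990, chr9:27097384-27155421) and Cgnl1 (ENSMUSG00000032232, chr9:71626509-71771602) share chromosome 9 on the minus strand. Lsr (ENSMUSG00000001247, chr7:30957770-30973464) and Tjp1 (ENSMUSG00000030516, chr7:65296165-65527781) share chromosome 7, also on the minus strand. Tjp1 overlaps 3 annotated genes, Lsr 2, and Jam2, Jam3 and Marveld2 overlap 1 each. Whether strand was used in counting is not given in the sources used here, so reads of those overlaps are uncertain.

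RefSeq promoter windows on build GRCm38.p6 were matched for 7 of the 9 members. The 250 bases before the start are shown for Cldn5, the member with the highest level, for Ocln and F11r, the pair that varied most closely together, and for Lsr, the member with the most motif matches. Capitals mark matches on either strand to 5 short motifs: CCGGAA (the ETS core), ATTGT (SOX), CTTTGA (TCF/LEF), TGTTTAC (forkhead) and CAGGTG (the E-box of Snail and ZEB repressors). The windows are chr16:18776597-18776846 (plus strand) for Cldn5, chr13:100552719-100552968 (minus) for Ocln, chr1:171437311-171437560 (plus) for F11r and chr7:30973470-30973719 (minus) for Lsr.
Cldn5: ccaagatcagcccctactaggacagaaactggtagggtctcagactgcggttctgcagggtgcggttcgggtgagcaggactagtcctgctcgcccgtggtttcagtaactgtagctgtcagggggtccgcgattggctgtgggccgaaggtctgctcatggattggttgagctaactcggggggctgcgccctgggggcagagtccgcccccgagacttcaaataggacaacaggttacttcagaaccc
Ocln: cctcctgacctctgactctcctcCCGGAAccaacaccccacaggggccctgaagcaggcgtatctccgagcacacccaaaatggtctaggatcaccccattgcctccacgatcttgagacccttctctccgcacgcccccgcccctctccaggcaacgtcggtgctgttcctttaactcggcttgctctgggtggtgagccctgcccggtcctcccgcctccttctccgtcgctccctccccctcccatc
F11r: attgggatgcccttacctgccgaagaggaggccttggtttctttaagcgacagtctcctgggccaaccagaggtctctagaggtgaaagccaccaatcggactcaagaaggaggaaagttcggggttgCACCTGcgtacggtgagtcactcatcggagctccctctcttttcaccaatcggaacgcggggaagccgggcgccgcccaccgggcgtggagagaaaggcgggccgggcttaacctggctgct
Lsr: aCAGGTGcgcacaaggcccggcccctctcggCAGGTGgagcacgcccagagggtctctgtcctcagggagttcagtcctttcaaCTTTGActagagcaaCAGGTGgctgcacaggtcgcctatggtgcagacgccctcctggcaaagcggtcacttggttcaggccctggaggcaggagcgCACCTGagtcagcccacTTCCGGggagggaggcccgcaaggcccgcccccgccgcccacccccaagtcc
The Cldn5 window held 0 matches to the 5 motifs. The Ocln window shown held CCGGAA at position -227 from the start. A second RefSeq start of Ocln has a window, at chr13:100552499-100552748, with 0 matches to CCGGAA and with CAGGTG at -213 and -68. The F11r window held CAGGTG at -122, read on the opposite strand. The Lsr window held CAGGTG at 4 positions, -249, -219, -151 and -69, with CTTTGA at -166 and CCGGAA at -52. The matches at -69 and -52 were read on the opposite strand. Over 32851 promoter windows of this length, CAGGTG was in 17.2%, CCGGAA in 12.03%, CTTTGA in 13.8%, ATTGT in 27.7% and TGTTTAC in 3.17%. A match describes letters in a window and not a bound factor.

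Levels of different genes were compared per length, as counts scaled both to library size and to the length of annotated exon (RPKM). Cldn5 was the highest of the 9, at 182 RPKM ± 52.0 (SD, n = 17), and Tjp1, which encodes the scaffold ZO-1, followed at 62.5 ± 9.94. Cldn5 was above Tjp1, and Tjp1 above Lsr, in 17 of 17 libraries each. The angulin gene Lsr (32.0 ± 6.02 RPKM), the paracingulin gene Cgnl1 (26.6 ± 8.18) and Jam2 (22.6 ± 3.87) were close: Lsr exceeded Cgnl1 in 12 of 17 libraries and Cgnl1 exceeded Jam2 in 11 of 17. Ocln reached 19.5 ± 4.13 RPKM and was below Jam2 in 15 of 17 libraries. F11r (11.6 ± 2.89) and Jam3 (10.1 ± 1.14), the genes of JAM-A and JAM-C, did not separate, with F11r higher in 12 of 17 libraries. The tricellulin gene Marveld2 was last in 17 of 17 libraries, at 1.56 RPKM ± 0.384, and rested on 27 to 108 counts per library. Union exon length counts every annotated isoform, so the order of neighbours may shift with the isoforms in use.

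Total counts per library ran from 7316503 to 17862965, with a median of 11342154. The genotype labels were checked with App and with Prnp, whose promoter drives a widely used APP/PS1 line. Prnp was above every WT library in 7 of 7 APP/PS1 libraries and App in 5 of 7, so the App ranges overlapped (1897 to 3334 counts scaled to library size alone, CPM, in APP/PS1 and 1262 to 2230 CPM in WT). The labels name endothelium, pericytes and astrocyte endfeet, and the 15 endothelial markers, 8 pericyte markers and 7 astrocyte markers listed were all detected, with summed levels of 3347 to 6003, 1081 to 1871 and 2990 to 5148 CPM. Neuron markers (8 genes, 2598 to 4391 CPM) and oligodendrocyte markers (7 genes, 1460 to 2556 CPM) were present too. Choroid plexus epithelium markers (8 genes) ranged from 30.7 to 8215 CPM, a 268-fold span, and the libraries fell into 7 with a mean marker level of at most 3.47 log2 CPM and 10 with at least 5.01. Each of the 4 groups had libraries on both sides of that gap. Microglia markers (6 genes) summed to between 171 and 238 CPM in WT, and to between 205 and 385 CPM in APP/PS1.

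No member passed the test for genotype, inhibitor or their combination. Over both peptides, 110 of 18753 genes differed by genotype (0.587% of genes tested; edgeR quasi-likelihood test, Benjamini-Hochberg adjusted p under 0.05), and 0 of the 9 members were among them. By inhibitor over both genotypes, 0 genes passed (0%), and hence 0 members. At an unadjusted p under 0.05, 0 of 9 members passed in either comparison, against 6.38% and 2.11% of all genes tested. DESeq2 called 0 of 9 members in both. The median member difference was 0.037 on the log2 scale for genotype and 0.035 for inhibitor, and the medians over all genes tested were 0.0017 and 0.0038. Pointwise 95% intervals of all 9 members, in both comparisons, lay between 0.691-fold and 1.45-fold. In bulk RNA, fewer cells of a type and less RNA per cell cannot be told apart, so these levels describe the preparation and not the single cell.

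**Figure D1:**
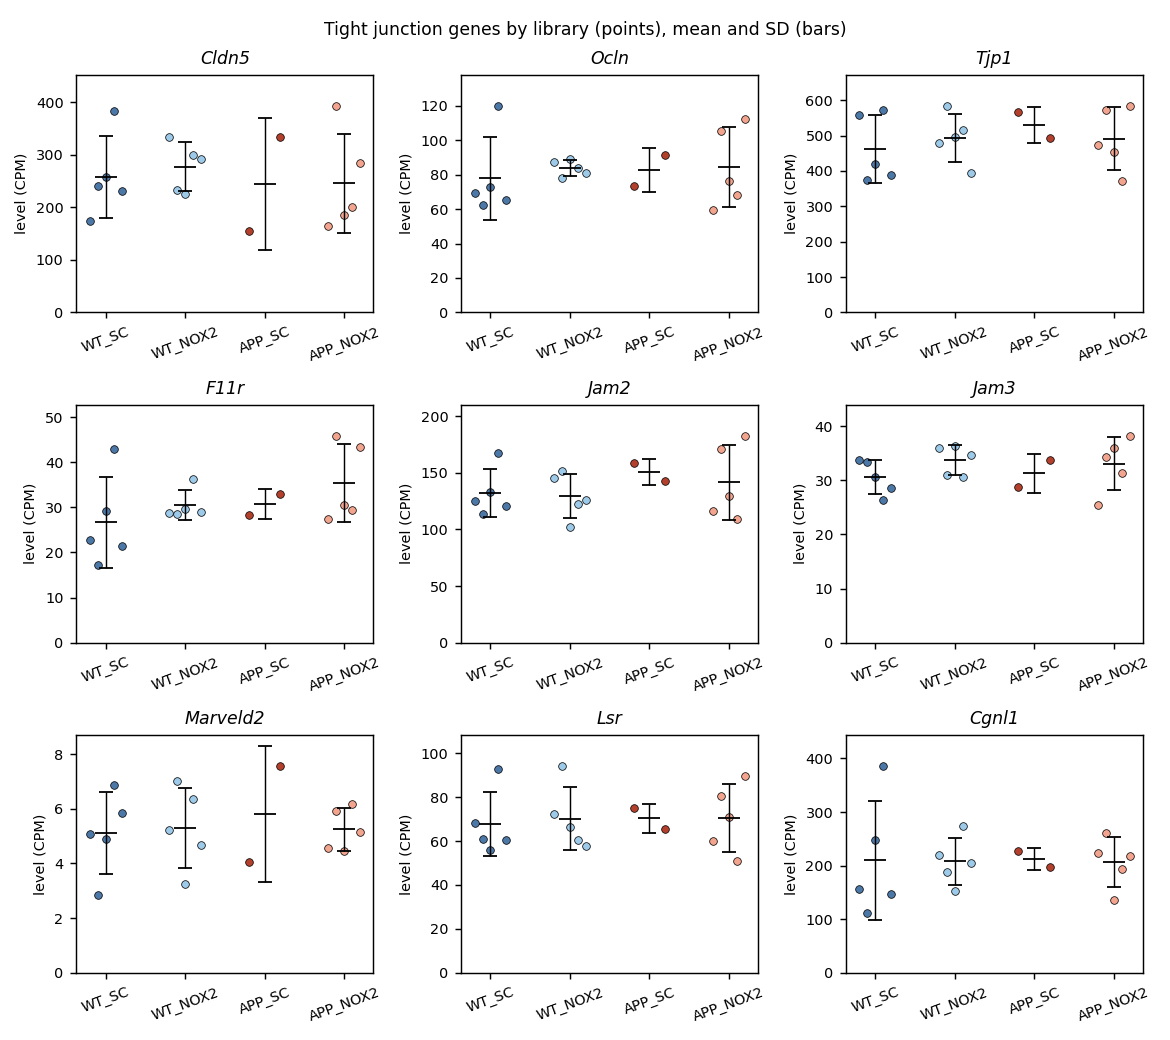
Level of each of the 9 tight junction genes (vertical axes, CPM, from 0) in every library, by group (horizontal axes; SC, control peptide; NOX2, inhibitor). Points are libraries and bars give the mean with its SD; for example, Cldn5 ran from 155 to 393 CPM and the groups overlapped for each gene.

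Among the strand-forming proteins, Cldn5 varied widely within every group. It was at 174, 241, 258, 383 and 232 CPM in WT with control peptide and at 334, 233, 226, 300 and 292 CPM in WT with inhibitor. In APP/PS1 it was at 155 and 333.2 CPM with control peptide and at 165, 393, 185, 201 and 285 CPM with inhibitor. The lowest and the highest of the 17 libraries were both APP/PS1, and all groups overlapped. Cldn5 had a mean of 245 CPM ± 92.5 (SD) over the 7 APP/PS1 libraries and of 267 ± 60.8 over the 10 WT ones. The log2 difference by genotype over both peptides was -0.14 (95% interval -0.53 to 0.26; edgeR adjusted p = 0.987), and by inhibitor it was 0.071 (-0.33 to 0.47; edgeR adjusted p = 1.00). The direction by genotype turned to 0.29 when the 7 libraries low in choroid plexus markers were taken alone, again short of the threshold.

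Ocln, the gene of occludin, was steadier. Its levels were 69.4, 62.1, 72.9, 120 and 65.1 CPM in WT with control peptide and 87.2, 77.9, 89.1, 83.7 and 81.0 CPM in WT with inhibitor. They were 73.5 and 91.6 CPM in APP/PS1 with control peptide and 59.4, 106, 76.6, 68.2 and 112 CPM in APP/PS1 with inhibitor. The library at 120 CPM, replicate 4 of WT with control peptide, stood apart from the others of its group, and all groups overlapped. The log2 difference was 0.037 by genotype (95% interval -0.25 to 0.33) and 0.078 by inhibitor (-0.21 to 0.37). Marveld2, the other MARVEL-domain member, ranged from 2.83 to 7.57 CPM over the 17 libraries, with log2 differences of 0.054 (-0.32 to 0.43) and -0.020 (-0.40 to 0.36).

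Of the junctional adhesion molecules, F11r had the largest difference in both comparisons. It was at 22.8, 17.2, 29.3, 43.1 and 21.3 CPM in WT with control peptide and at 28.8, 28.5, 29.6, 36.4 and 29.0 CPM in WT with inhibitor. In APP/PS1 it was at 28.3 and 33.0 CPM with control peptide and at 27.4, 45.9, 30.6, 29.4 and 43.4 CPM with inhibitor. The 3 lowest libraries were WT with control peptide, but that group also held a library among the 3 highest, so the ranges overlapped. F11r had a mean of 34.0 CPM ± 7.54 (SD) over the 7 APP/PS1 libraries and of 28.6 ± 7.36 over the 10 WT ones, a log2 difference of 0.21 (95% interval -0.11 to 0.53; edgeR adjusted p = 0.922). The difference by inhibitor over both genotypes was 0.19 (-0.13 to 0.52; edgeR adjusted p = 1.00). Replicate 4 of WT with control peptide weighed on both. Without it the log2 difference was 0.29 by genotype and 0.34 by inhibitor. The edgeR adjusted p-values were 0.551 and 0.964, and the unadjusted ones 0.0275 and 0.0172. That fit was 1 of 17 that each left out 1 library, and it gave the largest F11r difference in both comparisons. Over the 17 fits, F11r ran from 0.14 to 0.29 by genotype and from 0.12 to 0.34 by inhibitor. The share of all genes with an unadjusted p under 0.05 in the fit without replicate 4 is not given.

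Jam2, the gene of JAM-B, had a mean of 144 CPM ± 27.9 (SD) over the 7 APP/PS1 libraries and of 131 ± 19.3 over the 10 WT ones. Its log2 difference was 0.15 by genotype (95% interval -0.084 to 0.39; edgeR adjusted p = 0.926) and -0.050 by inhibitor (-0.29 to 0.19). Jam3 was the least variable member. Its levels were 33.7, 33.4, 30.6, 26.3 and 28.7 CPM in WT with control peptide, 36.1, 31.1, 36.4, 30.7 and 34.7 CPM in WT with inhibitor, 28.8 and 33.8 CPM in APP/PS1 with control peptide, and 25.5, 34.4, 36.04, 31.4 and 38.3 CPM in APP/PS1 with inhibitor. The highest library was 1.499-fold above the lowest, and the groups overlapped. Its log2 difference was -0.0069 by genotype (-0.18 to 0.17) and 0.12 by inhibitor (-0.058 to 0.30).

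At the corners and on the cytoplasmic side the picture was the same. Lsr ranged from 51.1 to 94.2 CPM, with log2 differences of 0.022 by genotype (95% interval -0.24 to 0.29) and 0.035 by inhibitor (-0.23 to 0.30). Tjp1 was at 559, 373, 421, 573 and 387 CPM in WT with control peptide, at 478, 583, 497, 515 and 395 CPM in WT with inhibitor, at 567 and 494 CPM in APP/PS1 with control peptide and at 473, 573, 452, 373 and 585 CPM in APP/PS1 with inhibitor. Both genotypes reached from about the same lowest level to about the same highest one, and the log2 differences were 0.068 (-0.17 to 0.31) and 0.017 (-0.22 to 0.26). Cgnl1, whose product binds ZO-1 and links the junction to the cytoskeleton, had the widest range of the 9. It was at 156, 111, 247, 386 and 148 CPM in WT with control peptide and at 220, 188, 153, 273 and 205 CPM in WT with inhibitor. In APP/PS1 it was at 227 and 198 CPM with control peptide and at 224, 261, 135, 194 and 218 CPM with inhibitor. WT with control peptide held both the lowest and the highest library of all 17. The log2 difference of Cgnl1 was 0.00072 by genotype (-0.42 to 0.42) and -0.023 by inhibitor (-0.44 to 0.39).

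**Figure D2:**
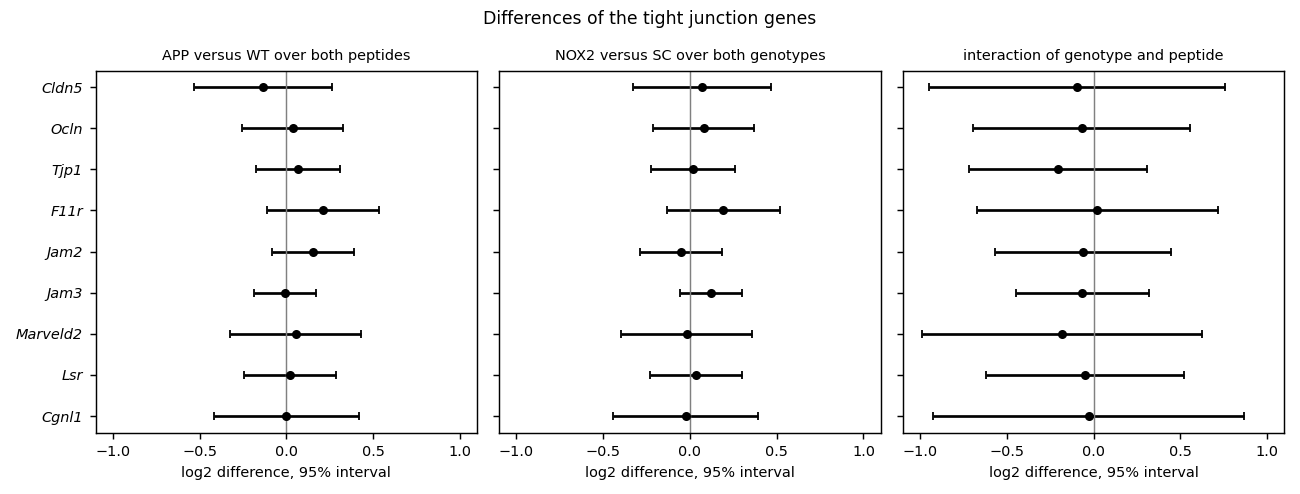
Log2 difference (horizontal axes) of each tight junction gene (vertical axis) by genotype over both peptides, by inhibitor (NOX2) against control peptide (SC) over both genotypes, and as the interaction; points are edgeR estimates and bars 95% intervals. Every interval crosses 0, and the interaction, with 2 APP/PS1 control-peptide libraries, has the widest intervals.

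Within a single peptide or genotype the members did not pass either. Under the control peptide, where 10 genes passed (0.0533%; edgeR adjusted p under 0.05), 0 of 9 members passed, and their genotype differences ran from -0.077 (Cldn5) to 0.20 (Tjp1) on the log2 scale. Under the inhibitor, where 34 genes passed (0.181%), 0 of 9 members passed, with differences from -0.17 (Cldn5) to 0.22 (F11r). The effect of inhibitor ran from -0.027 (Jam2) to 0.18 (F11r) in WT and from -0.13 (Marveld2) to 0.21 (F11r) in APP/PS1, and 0 of 18753 genes (0%) passed in either. The interaction, which is the inhibitor difference in APP/PS1 minus that in WT, ran from -0.20 (Tjp1) to 0.022 (F11r), with 0 genes passing (0%). These comparisons share groups, so a member's values in them are not independent of each other. In each of these 5 comparisons 0 of 9 members reached an unadjusted p under 0.05 by edgeR, and 0 of 9 were called by DESeq2. Of all genes, 3.97% and 3.38% did so by genotype under the control peptide and under the inhibitor, 1.34% and 1.80% by inhibitor in WT and APP/PS1, and 0.843% in the interaction. Interaction intervals differed in width between members. They ran from 0.734-fold to 1.25-fold for Jam3, from 0.609-fold to 1.24-fold for Tjp1 and from 0.526-fold to 1.83-fold for Cgnl1. A change inside a member's own interval is not excluded by these data, and the interval is not a limit of detection.

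The ranges of the groups overlapped for 9 of 9 members in each of the 6 comparisons of groups. Of all genes tested, the share with ranges that did not overlap was 0.272% by genotype over both peptides, 7.53% under the control peptide and 0.784% under the inhibitor. By inhibitor it was 0.224% in WT, 4.63% in APP/PS1 and 0% over both genotypes. The shares are highest where a side has 2 libraries.

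The members' levels were set against the endothelial markers of each library. An endothelial score was taken as the mean log2 CPM of 15 endothelial markers, such as Pecam1, Cdh5 and Flt1, that include no member. It ran from 7.34 to 8.13 over the 17 libraries, with overlapping ranges in the 4 groups. Ocln followed it most closely, with Pearson r = 0.90 and Spearman rho = 0.88 (n = 17; permutation p = 1e-05 for both, the smallest that 100000 permutations can give; adjusted p = 9e-05). Jam2 (r = 0.83, rho = 0.84), F11r (r = 0.81, rho = 0.68) and Cldn5 (r = 0.77, rho = 0.73) came next, with permutation p-values for r of 8e-05, 6e-05 and 0.00042 and adjusted values of 0.00024, 0.00024 and 0.000945. Tjp1, Cgnl1 and Lsr had r = 0.71, 0.71 and 0.70, with rho = 0.77, 0.66 and 0.63 and adjusted permutation p-values of 0.00229, 0.00207 and 0.00229.

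Marveld2 followed the score less closely (r = 0.51, rho = 0.52, permutation p = 0.0392, adjusted p = 0.0441), and Jam3 did not pass (r = 0.14, rho = 0.18, permutation p = 0.598, adjusted p = 0.598). In all, 8 of 9 relations had an adjusted p under 0.05, by r and by rho. The same 8 had a positive r with an unadjusted permutation p under 0.05, as did 15.9% of all genes tested. Without the 2 libraries farthest from the median score, r stayed between 0.42 (Marveld2) and 0.85 (Ocln) for these 8 and became 0.41 for Jam3. With group means subtracted, r was 0.91 for Ocln, 0.90 for F11r, 0.86 for Jam2, 0.80 for Cldn5 and 0.12 for Jam3. Scores and members come from the same libraries and share their scaling, and the part of cell makeup in these relations was not tested.

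**Figure D3:**
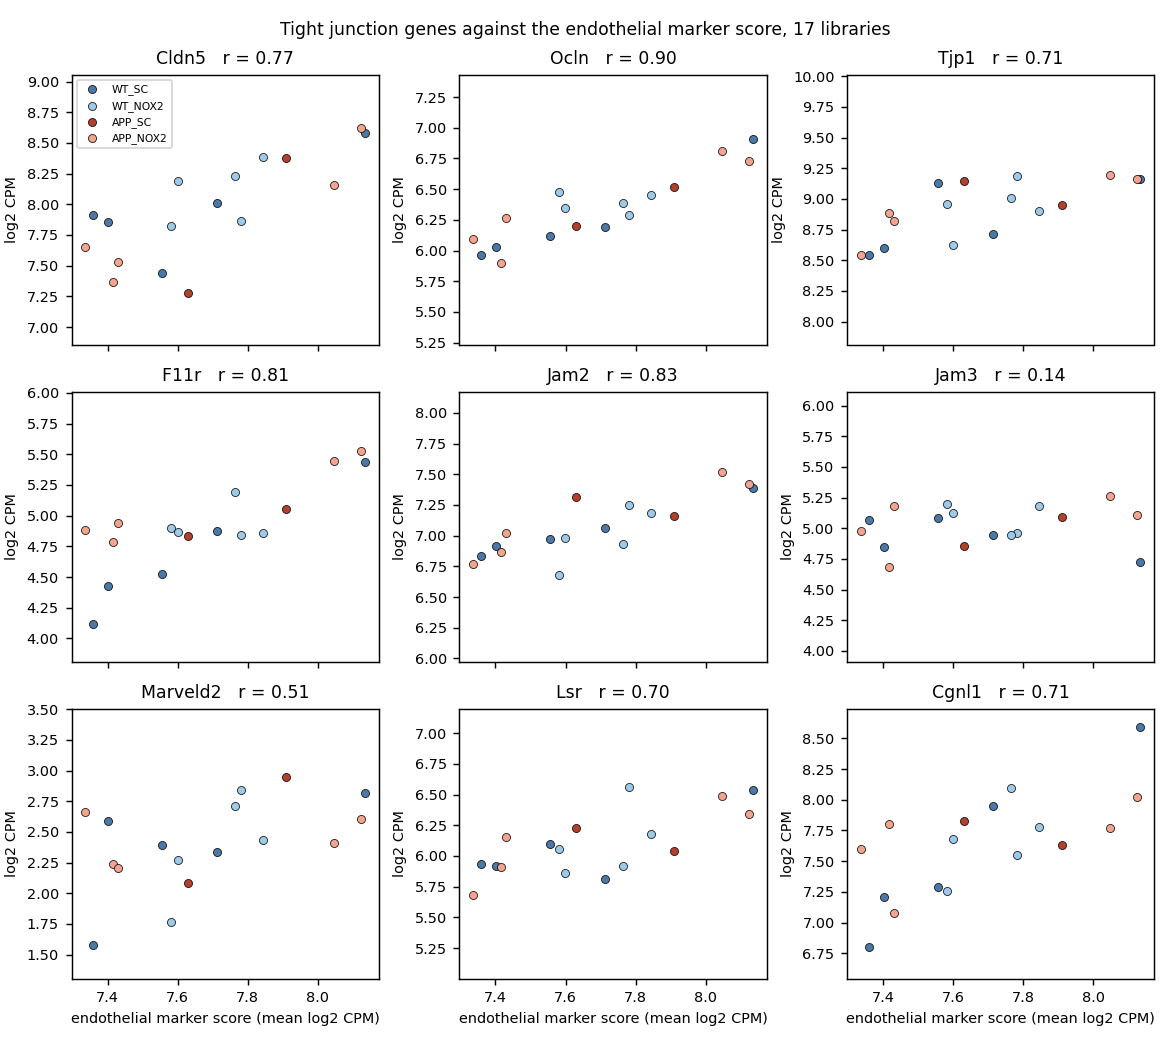
Level of each tight junction gene (vertical axes, log2 CPM, each spanning the same range) against the endothelial marker score (horizontal axes, mean log2 CPM of 15 markers) in 17 libraries coloured by group. Ocln (r = 0.90) lies closest to a line and Jam3 (r = 0.14) shows none; libraries of the 4 groups are intermixed.

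The SD within groups, on the log2 scale, was 0.472 for Cgnl1, 0.445 for Cldn5, 0.405 for Marveld2 and 0.350 for F11r. It was 0.316 for Ocln, 0.288 for Lsr, 0.255 for Jam2, 0.251 for Tjp1 and 0.171 for Jam3. All members but Tjp1 and Jam3 were above the median of 0.252 over all genes tested. When levels were taken relative to the endothelial score, the SD fell to 0.131 for Ocln, 0.145 for Jam2 and 0.157 for F11r, and grew to 0.316 for Jam3. It became smaller for 8 of the 9 members and for 14.9% of all genes tested. The gain follows from the correlations above and is no separate evidence.

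Relative to that score, F11r had means of -2.96 ± 0.205 (SD, n = 5) in WT with control peptide, -2.78 ± 0.176 (n = 5) in WT with inhibitor, -2.83 ± 0.0419 (n = 2) in APP/PS1 given control peptide, and -2.55 ± 0.0804 (n = 5) in APP/PS1 given inhibitor, in log2 units. With the score as a covariate, the F11r difference was 0.19 ± 0.080 (SE) by genotype and 0.21 ± 0.081 by inhibitor. The unadjusted edgeR p-values were 0.0328 and 0.0206, and the adjusted ones 0.580 and 0.999. F11r thus had the same sign in both comparisons and missed the threshold over all genes in both.

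The members varied with one another as well. Of 36 pairs, 34 had a positive r, as did 49.7% of all pairs of genes tested. An adjusted permutation p under 0.05 was reached by 15 pairs for Pearson's r and by 7 for Spearman's rho. The 15 had r of 0.56 or more, as did 4.27% of all pairs of genes tested. All 15 were among the 28 pairs without Jam3, and 0 of the 8 pairs with Jam3 passed. Ocln and F11r were closest, with r = 0.85 and rho = 0.83 (n = 17; permutation p = 1e-05, adjusted p = 0.00036), and r = 0.79 without the 2 libraries farthest from the median of Ocln. Tjp1 and Lsr had r = 0.82 and rho = 0.83 (adjusted permutation p = 0.00192), and Jam2 and Lsr had r = 0.80 and rho = 0.73 (adjusted permutation p = 0.00192). F11r and Cgnl1 had r = 0.76 but rho = 0.50, with adjusted permutation p-values of 0.00387 and 0.128. Cldn5 and Tjp1, the 2 members with the highest levels, had r = 0.16 and rho = 0.23 (permutation p = 0.54 and 0.371, adjusted p = 0.607 and 0.461). The median r of the 36 pairs was 0.49, and it was 0.53 with group means subtracted and -0.036 with the endothelial score subtracted.

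**Figure D4:**
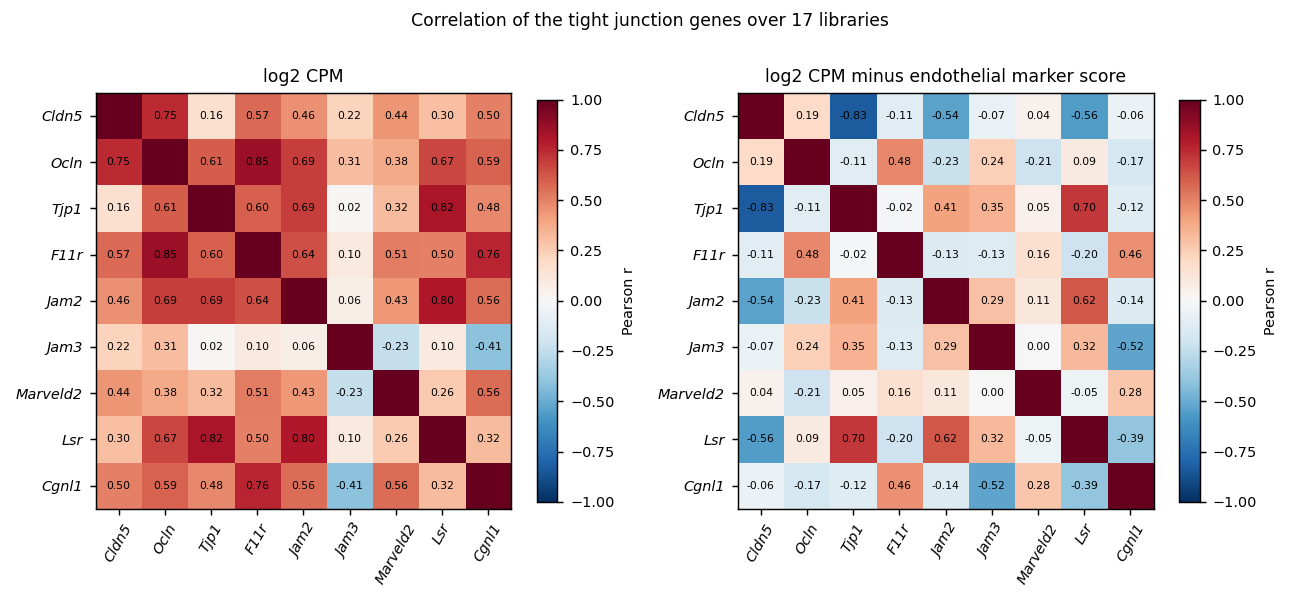
Pearson r (colour and number) for each pair of tight junction genes over 17 libraries, on log2 CPM (left) and on log2 CPM minus the endothelial marker score (right). On the left most pairs are positive, led by Ocln with F11r (0.85); on the right pairs lie on both sides of 0 and Cldn5 with Tjp1 is the most negative (-0.83).

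With the endothelial score subtracted from both, Cldn5 and Tjp1 ran opposite ways, at r = -0.83 and rho = -0.74 (n = 17; permutation p = 9e-05 and 0.0008; adjusted over 36 pairs, p = 0.00324 and 0.0169). Without the 2 farthest libraries r was -0.74. This was looked for after the pairwise values had been seen. The same score was subtracted from both genes, and Cldn5 and Tjp1 had each followed it (r = 0.77 and 0.71). The negative r thus follows in part from correlations already given and is no separate evidence. The permutations do not allow for the shared score. With the score subtracted, 2 of 36 pairs had an adjusted permutation p under 0.05, Tjp1 with Lsr being the other, at r = 0.70. The share among all pairs of genes on that scale is not given here, so whether 2 of 36 is unusual is not known. The ratio of Cldn5 to Tjp1, in CPM, ran from 0.311 to 0.668 in WT with control peptide, from 0.399 to 0.740 in WT with inhibitor, from 0.274 to 0.674 in APP/PS1 with control peptide and from 0.348 to 0.687 in APP/PS1 with inhibitor. All 4 groups thus held libraries at low and at high ratios. The log2 ratio was lower in libraries with a higher neuron marker score (r = -0.71, rho = -0.63, permutation p = 0.0015 and 0.00863, adjusted over 4 relations p = 0.00600 and 0.0345, r = -0.61 without 2 libraries). The noncoding genes Gm26917 and Gm42418 took from 4.76% to 16.0% of the counts of a library. The log2 ratio was higher where they took more (r = 0.62, rho = 0.54, permutation p = 0.00778 and 0.026, adjusted p = 0.0156 and 0.0520, r = 0.51 without 2 libraries). It was lower at higher total counts by r alone (r = -0.55, rho = -0.34, permutation p = 0.0226 and 0.189, adjusted p = 0.0302 and 0.189, r = -0.48 without 2 libraries). For oligodendrocyte markers r was -0.30 and rho -0.35 (permutation p = 0.248 and 0.169, adjusted p = 0.248 and 0.189), and r was -0.66 without 2 libraries. The part of each in the ratio was not tested. Of the cell type scores, only those of neurons and oligodendrocytes were set against the ratio, and the adjustment covers these 4 relations alone. The ratio itself was taken up after the pairwise values had been seen, and ratios of other genes were not compared.

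The genes whose levels were most like each member's over the 17 libraries were found among all genes tested, by Pearson r of log2 CPM, and are given as a description. Cldn5 was most like Mpzl1 (r = 0.95) and Slc40a1 (r = 0.93), which encodes the iron exporter ferroportin. Ocln was most like Glud1, a glutamate dehydrogenase, and Adgra2, a co-receptor for Wnt7 signals in brain endothelium (r = 0.96 for both). Tjp1 was most like Fli1, an ETS factor of endothelium and blood cells, and Nfe2l2, the gene of the oxidative stress regulator NRF2 (r = 0.95 for both). F11r was most like Fbln2, an extracellular matrix gene (r = 0.94), and Stra6, a receptor for retinol-binding protein (r = 0.93). Jam2 was most like Pls3 and Spock2 (r = 0.93 for both), Lsr most like St3gal1 (r = 0.92) and Zfp366 (r = 0.90), and Cgnl1 most like Syne2 (r = 0.95) and Phactr2 (r = 0.93).

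Jam3 and Marveld2 had fewer such genes than the other members. Jam3 was most like Epop (r = 0.85) and Slc35c2 (r = 0.84), with 7 genes above r = 0.8. Marveld2 was most like Trim26 (r = 0.80) and Gm16279 (r = 0.79), with 1 gene above 0.8. Ocln had 438 genes above 0.8, Tjp1 306, F11r 259, Cgnl1 165, Jam2 161, Cldn5 142 and Lsr 97. All of these values share the libraries, their scaling and their makeup. The number for a typical gene is not given here, and Marveld2 rests on 27 to 108 counts per library.

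Other claudins were mostly scarce. Of 24 further claudin-family genes listed, 23 were in the table, 8 passed the filter and 6 had a mean of 1 CPM or more. Cldn16, Cldn18, Cldn24 and Cldn34a were at 0 in all libraries, where a count of 0 allows up to 0.174 to 0.390 CPM, for counting error only. Per length, Cldn11, the claudin of myelin, was highest at a mean of 74.7 RPKM, below Cldn5. Cldnd1 followed at 17.8 RPKM, Cldn12 at 12.6, Cldn2 at 5.73, Cldn10 at 4.07 and Cldn1 at 2.41. In each of the 7 comparisons 0 of the 8 tested passed the edgeR threshold. The smallest p was that of Cldn10 by genotype over both peptides, with means of 11.8 CPM ± 2.56 (SD) over the 7 APP/PS1 libraries and 9.63 ± 1.85 over the 10 WT ones. Its log2 difference was 0.31 (edgeR adjusted p = 0.742).

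Cldn2 and Cldn1, claudins known from epithelia, moved with choroid plexus markers. Cldn2 was at 0.752 to 5.74 CPM in the 7 libraries low in those markers and at 16.2 to 68.4 CPM in the 10 high ones. Cldn1 was at 2.72 to 5.75 CPM and 9.96 to 29.4 CPM. Within the low and the high libraries, r with the choroid plexus score was 0.81 and 0.91 for Cldn2, and 0.67 and 0.82 for Cldn1. Cldn5 had medians of 233 and 275 CPM on the 2 sides, with ranges of 174 to 333.2 and 155 to 393 CPM that overlapped. Of the members, Cgnl1 had the widest gap between the medians, 156 CPM in the low libraries and 225 CPM in the high ones, with ranges of 111 to 218 and 148 to 386 CPM. Its r within them was 0.25 (n = 7) and 0.61 (n = 10). The part of choroid plexus tissue in the Cgnl1 levels was not tested.

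**Figure D5:**
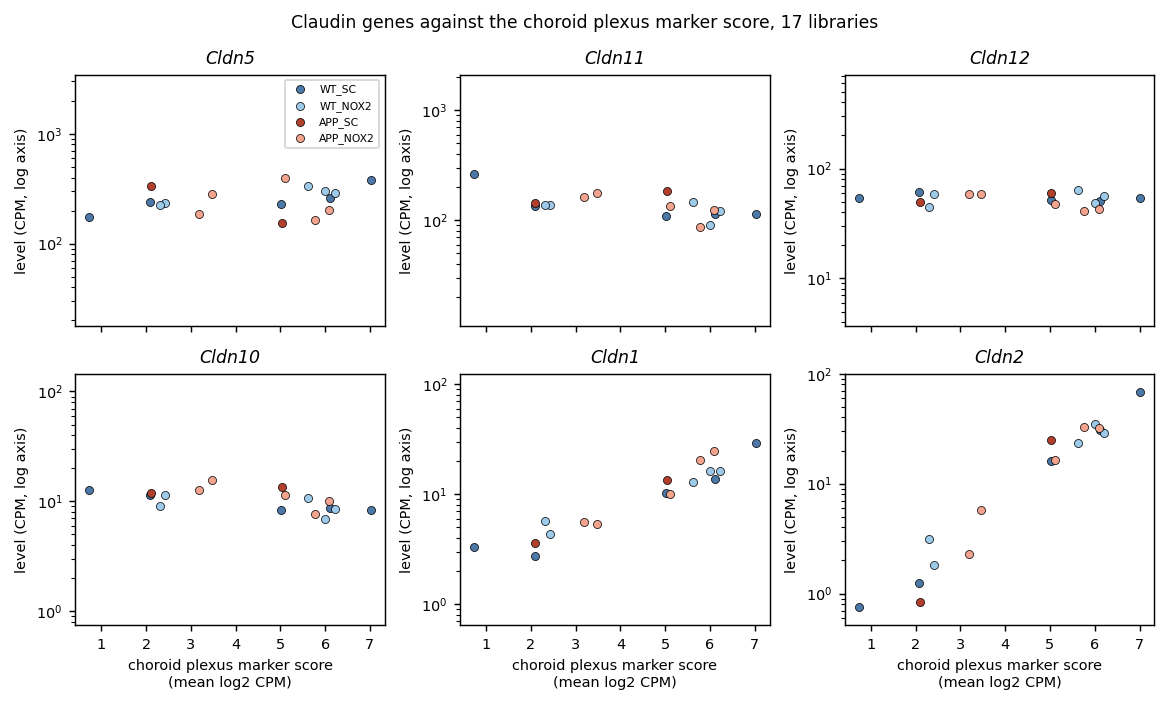
Level of 6 claudin genes (vertical axes, CPM, log axis) against the choroid plexus marker score (horizontal axes, mean log2 CPM of 8 markers) in 17 libraries coloured by group. Cldn2 and Cldn1 climb across the gap between scores of 3.47 and 5.01, whereas the ranges of Cldn5 on either side of it overlap.

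The neighbours of these genes in the pathway gave no call. Among 26 of 28 further tight junction genes tested (scaffolds, cingulin, angulins and polarity proteins), 0 passed in any of the 7 comparisons. Tjap1, which encodes a protein that associates with junctions and the Golgi apparatus, had the smallest p. It averaged 24.8 CPM ± 2.41 (SD, n = 5) in WT with control peptide, 27.8 ± 1.18 (n = 5) in WT with inhibitor, 23.3 ± 0.207 (n = 2) in APP/PS1 given control peptide, and 30.4 ± 5.20 (n = 5) in APP/PS1 given inhibitor. Tjap1 had a median of 27.7 CPM in APP/PS1 with inhibitor, where the highest library was at 39.5 CPM, and of 27.5 CPM in WT with inhibitor. Its log2 difference by inhibitor over both genotypes was 0.25 (edgeR adjusted p = 1.00), and it was 0.39 in APP/PS1. All 13 adherens junction genes were tested and 0 passed, with the smallest p at Nectin2 by inhibitor (log2 difference 0.23, edgeR adjusted p = 1.00).

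Of 21 regulators of endothelial junctions, 0 passed. By genotype over both peptides 18 of the 21 had a positive difference, against 50.7% of all genes, with a median of 0.12 on the log2 scale against 0.0017. These genes share the libraries, and the list as a whole was not tested. The smallest p was that of Klf4, a transcription factor induced by flow, with means of 66.2 CPM ± 26.9 (SD) over the 7 APP/PS1 libraries and 46.1 ± 14.9 over the 10 WT ones (log2 difference 0.49, edgeR adjusted p = 0.776). Of 14 proteases and their inhibitors that act on junctions or matrix, 9 were tested and 0 passed. Adam17, the sheddase, had the smallest p, by genotype over both peptides (log2 difference 0.16, edgeR adjusted p = 0.827).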

How the data were processed

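Per the labels' protocols, cortical microvessels were pelleted through dextran, RNA was purified on columns, and ribosomal RNA was depleted before stranded libraries were made. That text speaks of ipsilateral cortices after surgery, but no surgery is described. The authors deposited raw counts per Ensembl gene. The submitters' processing notes name cutadapt, STAR, HTSeq and DESeq2 and the builds GRCh37 and mm10, with no versions or roles. Of the table's columns, 20 matched no sample and were not used. GENCODE vM21 gave symbols for 42250 IDs and none for 437. The 9 members and the gene lists were chosen with earlier results of these data known.

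Counts were filtered with filterByExpr, scaled by TMM and tested with edgeR 4.0.16 (R 4.3.3; limma 3.58.1), using the quasi-likelihood F test over all 17 libraries and Benjamini-Hochberg adjustment over 18753 genes at 0.05. The 7 comparisons came from a model with 1 mean per group and from one in which genotype and peptide add. CPM use TMM-scaled totals and log2 CPM a prior count of 2. RPKM were computed from CPM and union exon length. Correlations used 100000 permutations, two-sided (scipy 1.17.1). The fit was tested on simulated counts. Within groups, 0 of 31 library pairs were identical, and the lowest chi-square per degree of freedom was 5.37. The libraries are thus not copies of each other, but this cannot show that they came from different mice. Each library was counted as 1 replicate. Genes named were the 9 members, the gene with the smallest p of each list in which none passed, claudins with a mean of 1 CPM or more, and the 2 genes most like each member. Alternatives were DESeq2 size factors, the DESeq2 1.42.0 Wald test, no filter, leaving out Gm26917 and Gm42418, an endothelial or a choroid plexus score as covariate, and leaving out each library. Fits of the 7 choroid-poor libraries, and correlations with the choroid plexus score or relative to the endothelial score, were chosen after seeing the data. So were the shares of all genes and of all gene pairs set beside the members' correlations.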

Additional observations from a re-analysis of the deposited data

Results flagged for a closer look

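In 33 tests of single libraries within groups of 5, on log2 CPM of a tight junction gene or on the endothelial or choroid plexus marker score, 2 libraries stood apart by Dixon's ratio, the gap to the nearest library divided by the range of the group, with a limit of 0.71 for 5 libraries. Chance flags about 1 in 20 such tests. Ocln in replicate 4 of WT with control peptide was at 6.91 log2 CPM, with the other 4 libraries between 5.96 and 6.19 (ratio 0.757). That library also had the highest endothelial marker score of the 17, at 8.13. F11r in replicate 4 of WT with inhibitor was at 5.19 log2 CPM, with the others between 4.84 and 4.90 (ratio 0.837).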

How the results depend on the processing

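No paired analysis was possible because the labels give no replicate numbers, and those used here follow the order of the samples. In every alternative and every fit without 1 library, 0 of 9 tight junction genes passed the threshold. F11r was the 1 member with unadjusted p-values under 0.05 in some of them, and the share of all genes in those fits is not given. Its genotype difference over both peptides was 0.49 in the 7 choroid-poor libraries alone (edgeR adjusted p = 0.655), where the inhibitor difference was 0.38 (edgeR adjusted p = 1.00). Marveld2 rests on the fewest counts, and the 2 libraries of APP/PS1 with control peptide limit every comparison that uses them. Where 1 of these was left out, the other was assumed to vary like the other groups.

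Counts of all genes past the threshold were 182, 45 and 61 with the DESeq2 Wald test, for genotype over both peptides, under the control peptide and under the inhibitor, against 110, 10 and 34 with edgeR. The first was 14 in the choroid-poor libraries alone, where 7 libraries were used. Leaving out 1 library gave 70 to 125, 4 to 17 and 15 to 38; the first fell to 70 without replicate 2 of APP/PS1 with control peptide. Under the control peptide, the count was 17 without replicate 4 of WT, 6 without its replicate 3, and 6 and 4 without replicates 1 and 2 of APP/PS1. Under the inhibitor it was 21, 19 and 15 without replicates 1, 3 and 5 of WT, and 15 and 17 without replicates 2 and 4 of APP/PS1.

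Member differences that changed sign were all far from the threshold, and the cause was not tested. By genotype over both peptides, Cgnl1 was -0.0053 with DESeq2 size factors, -0.0062 with DESeq2 and -0.0038 without Gm26917 and Gm42418, Ocln was -0.0015 with the endothelial covariate, and Cldn5, Tjp1 and Jam3 were 0.29, -0.0085 and 0.082 in the choroid-poor libraries. Cldn5 under the control peptide was 0.031 with the choroid plexus covariate. By inhibitor, Cgnl1 was 0.015 with the endothelial covariate, and Cldn5, Jam2 and Cgnl1 were -0.12, 0.10 and 0.14 in the choroid-poor libraries. In the interaction, Cldn5, Ocln, Jam2, Lsr and Cgnl1 were 0.089, 0.035, 0.030, 0.034 and 0.064 with the endothelial covariate, and F11r was -0.063 with the choroid plexus covariate.

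Leaving out each library in turn crossed 0 by genotype for Ocln (-0.036 to 0.11), Jam3 (-0.044 to 0.040), Marveld2 (-0.092 to 0.14), Lsr (-0.038 to 0.10) and Cgnl1 (-0.062 to 0.12), and under the control peptide for Cldn5 (-0.73 to 0.37). By inhibitor it did so for Cldn5 (-0.040 to 0.23), Tjp1 (-0.030 to 0.067), Jam2 (-0.091 to 0.0086), Marveld2 (-0.11 to 0.13), Lsr (-0.046 to 0.12) and Cgnl1 (-0.12 to 0.18), for Jam2 in WT (-0.092 to 0.073) and for Marveld2 in APP/PS1 (-0.53 to 0.37). In the interaction the ranges were -0.54 to 0.56 (Cldn5), -0.28 to 0.097 (Ocln), -0.22 to 0.14 (F11r), -0.17 to 0.019 (Jam2), -0.18 to 0.053 (Jam3), -0.58 to 0.32 (Marveld2), -0.19 to 0.081 (Lsr) and -0.37 to 0.13 (Cgnl1). F11r stayed positive in every such fit by genotype (0.14 to 0.29) and by inhibitor (0.12 to 0.34).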
